A study of Mus musculus with 61 samples.

Results

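The 10 genes described here are the pro-apoptotic members of the BCL2 family: the 8 BH3-only genes Bbc3, Pmaip1, Bcl2l11, Bid, Bad, Bmf, Bik and Hrk, and the pore-forming genes Bax and Bak1. They were taken by symbol from a table of 23927 gene rows, in which all 10 have a row. The table gives single cells of the ovary of wild-type CD-1 mice, an outbred stock, at postnatal day 5, collected 6 hours after an intraperitoneal injection of solvent (labelled vehicle) or of doxorubicin (labelled DOXO). Doxorubicin is a chemotherapy drug that breaks DNA. The dose is written in the labels as 10 mg/kb, which is not a unit of dose, so the dose is uncertain. There were 16 oocytes and 16 granulosa cells from the solvent groups, called control here, and 16 oocytes and 13 granulosa cells from the doxorubicin groups, 61 cells in all. Oocytes are the female germ cells, and granulosa cells are the somatic cells that surround and nourish them. No animal is named for any cell, so each group counted as 1 sample and no difference was tested.

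Apoptosis through the mitochondria is set by binding between members of the BCL2 family. BH3-only proteins are induced or activated by stress. They bind the pro-survival proteins, such as BCL2, BCL-XL and MCL1, and some of them also act directly on BAX and BAK1, which then form pores in the outer mitochondrial membrane and release cytochrome c. Bbc3 encodes PUMA and Pmaip1 encodes NOXA, both known targets of the p53 family. In mouse oocytes of primordial follicles, p63 (Trp63) is the family member known for acting on these genes after DNA damage. BAX, BAK1, BID, BIM and BAD are also controlled after translation, by phosphorylation, cleavage or a change of shape, which transcript counts do not measure.

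Total counts per cell lay between 6834594 and 31262609, and levels are given as counts per 1000000 counts of all gene rows (CPM). A group level is the sum over its cells. Each 95% interval of a level or ratio covers the counting error of reads alone, not the spread over cells or animals, and reads without molecular identifiers are not independent molecules. The labelled cell types were set against marker lists. Summed markers of oocytes (17 genes, such as Gdf9 and Zp3) exceeded summed markers of granulosa cells (16 genes, such as Amh and Fst) in 16 of 16 control and 16 of 16 doxorubicin oocytes. Summed granulosa markers were the higher of both in only 10 of 16 control granulosa cells and in 5 of 13 doxorubicin granulosa cells. Summed oocyte markers ranged from 425 to 17050 CPM in control granulosa cells, with a median of 1705, and from 374 to 42293 CPM in doxorubicin granulosa cells, with a median of 8715. Summed granulosa markers ranged from 342 to 13563 CPM in the control granulosa cells and from 617 to 9725 CPM in the doxorubicin granulosa cells. Stroma markers (8 genes) reached 13316 CPM in a control granulosa cell and 7961 CPM in a doxorubicin granulosa cell, and blood and immune markers reached 33378 CPM in doxorubicin granulosa cell 15. The granulosa groups are therefore called by their labels, and the drug ratios of the members and of listed genes past 2-fold in them are also given for the cells whose own markers were higher. That rule compares granulosa with oocyte markers alone. It keeps doxorubicin granulosa cell 13, with 7961 CPM of stroma against 1280 CPM of granulosa markers. Doxorubicin granulosa cell 15 is also kept, with 33378 CPM of blood and immune against 7811 CPM of granulosa markers. In bulk or pooled values, fewer cells with a transcript and less RNA in each cell cannot be told apart, so the shares of cells are given beside the group levels.

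Promoter windows of 3 genes are shown because each holds a motif of a transcription factor that is known to act on the set. Motifs were searched on both strands. The RefSeq table of build GRCm38.p6, which is the mm10 build named in the submitters' processing notes, held 14 start sites for 8 of the 10 genes. Pmaip1 and Bik had no entry in it, so their promoters were not searched. The p53 motif was searched as 1 copy of the decamer that p53 binds, which is not a full p53 element. In the 250 bases before each start, this p53 decamer was found in 2 of 14 windows, those of Bax and Bmf. Among all 32851 windows of the table it was found in 7.13%. The FOXO motif GTAAACA was found in 2 of 14 windows, those of Bcl2l11 and of an internal start of Bbc3, and in 3.17% of all windows. The AP-1 motif TGANTCA was found in 0 of 14 windows and in 6.75% of all. A match describes letters and not a bound site. Below, each window runs 5′ to 3′ on the gene's strand and ends at the base before the start, with the p53 decamer of Bax and the FOXO motifs of Bcl2l11 and Bbc3 in capitals. In Bbc3 the motif lies on the reverse strand, and the window lies inside the gene, in an intron.
Bax: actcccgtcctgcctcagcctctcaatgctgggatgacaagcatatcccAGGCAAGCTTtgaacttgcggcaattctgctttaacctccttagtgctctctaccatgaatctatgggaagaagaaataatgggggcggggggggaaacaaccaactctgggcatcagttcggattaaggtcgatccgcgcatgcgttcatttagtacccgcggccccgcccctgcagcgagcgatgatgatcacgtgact
Bcl2l11: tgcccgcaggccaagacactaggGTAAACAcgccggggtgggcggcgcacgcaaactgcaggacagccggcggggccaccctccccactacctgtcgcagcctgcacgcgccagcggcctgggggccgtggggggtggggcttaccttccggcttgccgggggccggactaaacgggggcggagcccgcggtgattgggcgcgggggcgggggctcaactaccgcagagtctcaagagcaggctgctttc
Bbc3: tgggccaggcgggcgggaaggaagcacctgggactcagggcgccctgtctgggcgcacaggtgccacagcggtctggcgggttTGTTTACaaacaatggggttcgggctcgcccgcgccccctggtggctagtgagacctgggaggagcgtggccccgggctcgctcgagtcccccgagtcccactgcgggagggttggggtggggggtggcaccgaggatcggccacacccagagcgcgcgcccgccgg
The Bax window is chr7:45466899-45467148 on the minus strand, the Bcl2l11 window is chr2:128125788-128126037 on the plus strand and the Bbc3 window is chr7:16310011-16310260 on the plus strand. The p53 decamer of Bax lies 201 to 192 bases before the start. Guanine and cytosine make up 54% of the Bax window, 72% of the Bcl2l11 window and 72.4% of the Bbc3 window, against a median of 52.4% over the table.

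Not all of the 10 genes were seen in every cell type. Counting a cell as positive at 5 or more reads, Bax was present in all 32 oocytes, in 14 of 16 control granulosa cells and in 13 of 13 from the doxorubicin group. Bad, whose product binds BCL2 and BCL-XL and is switched off by phosphorylation, was present in all 32 oocytes, in 13 of 16 control granulosa cells and in 11 of 13 of the drug group. Bid, whose product is cut by caspase-8, was present in 15 of 16 control and 16 of 16 doxorubicin oocytes but in 5 of 16 and 5 of 13 granulosa cells. These 3 transcripts thus made up the common part of the set in oocytes. In granulosa cells the other genes were patchy: a single cell could hold most of the reads of a group. Bcl2l11, Bbc3 and Pmaip1 were present in 14, 13 and 13 of 16 doxorubicin oocytes, where their top cells held 13.8%, 13.7% and 26.1% of the reads. They were present in 10, 9 and 9 of 16 control oocytes.

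**Figure D1:**
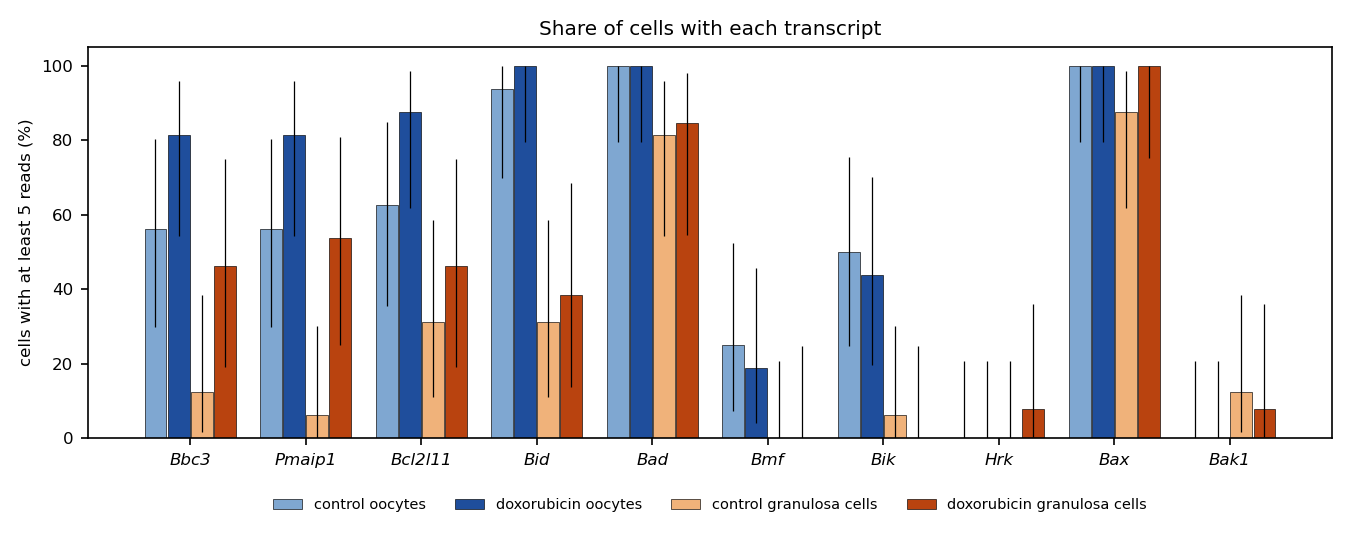
Percent of cells with at least 5 reads of each gene (vertical axis) in the 4 groups; bars are shares of 16, 16, 16 and 13 cells, and lines are exact binomial (Clopper-Pearson) 95% intervals that take each cell as an independent draw, although some cells may share an animal. Bax, Bad and Bid fill nearly all oocytes, Bbc3 and Pmaip1 are found in 81.2% of doxorubicin oocytes against 56.2% of control oocytes, and Hrk and Bak1 are near 0 throughout.

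Per kilobase of exon, which allows genes to be compared, the levels in control oocytes ran from Bax at 70.4 CPM per kb through Bad at 15.6 and Bid at 9.60 to Bbc3 at 1.02. Bik, Bcl2l11 and Pmaip1 followed at 0.864, 0.852 and 0.780 CPM per kb. Bmf stood at 0.443 and Bak1 at 0.00849 CPM per kb, and Hrk had no read. The ranges of Bax and Bad over control oocytes, per kilobase, did not overlap, those of Bad and Bid did, and those of Bbc3, Bik, Bcl2l11, Pmaip1 and Bmf all reached down to 0 and overlapped. In doxorubicin oocytes Bax stayed first at 81.3 CPM per kb and Bad second at 11.9, and Bbc3 at 7.39 and Pmaip1 at 7.31 came next, above Bid at 5.44. By the median over cells the order was the same in both oocyte groups: Bax, Bad, Bid, Bbc3 and Pmaip1 stood at 69.4, 15.6, 7.74, 0.792 and 0.423 CPM per kb in control oocytes and at 80.6, 10.3, 6.43, 4.93 and 2.51 in doxorubicin oocytes. In control granulosa cells the order was Bax at 59.2, Bad at 26.0, Bid at 2.61, Bcl2l11 at 1.91 and Bbc3 at 1.56 CPM per kb, and Bbc3 was at 0.0367 without control granulosa cell 2. A single cell held 51.9% of the Bid reads and 48.9% of the Bcl2l11 reads. The medians over control granulosa cells were 59.3 for Bax, 30.5 for Bad, 0.0107 for Bid, 0.00468 for Bcl2l11 and 0 CPM per kb for Bbc3. In doxorubicin granulosa cells Bax reached 162 CPM per kb and Bad 22.7, followed by Pmaip1 at 17.8 and Bbc3 at 5.63. Without doxorubicin granulosa cell 6 their order turned, with Pmaip1 at 4.35 and Bbc3 at 5.04 CPM per kb, and the median of Pmaip1 over all 13 cells was 0.190 CPM per kb.

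**Figure D2:**
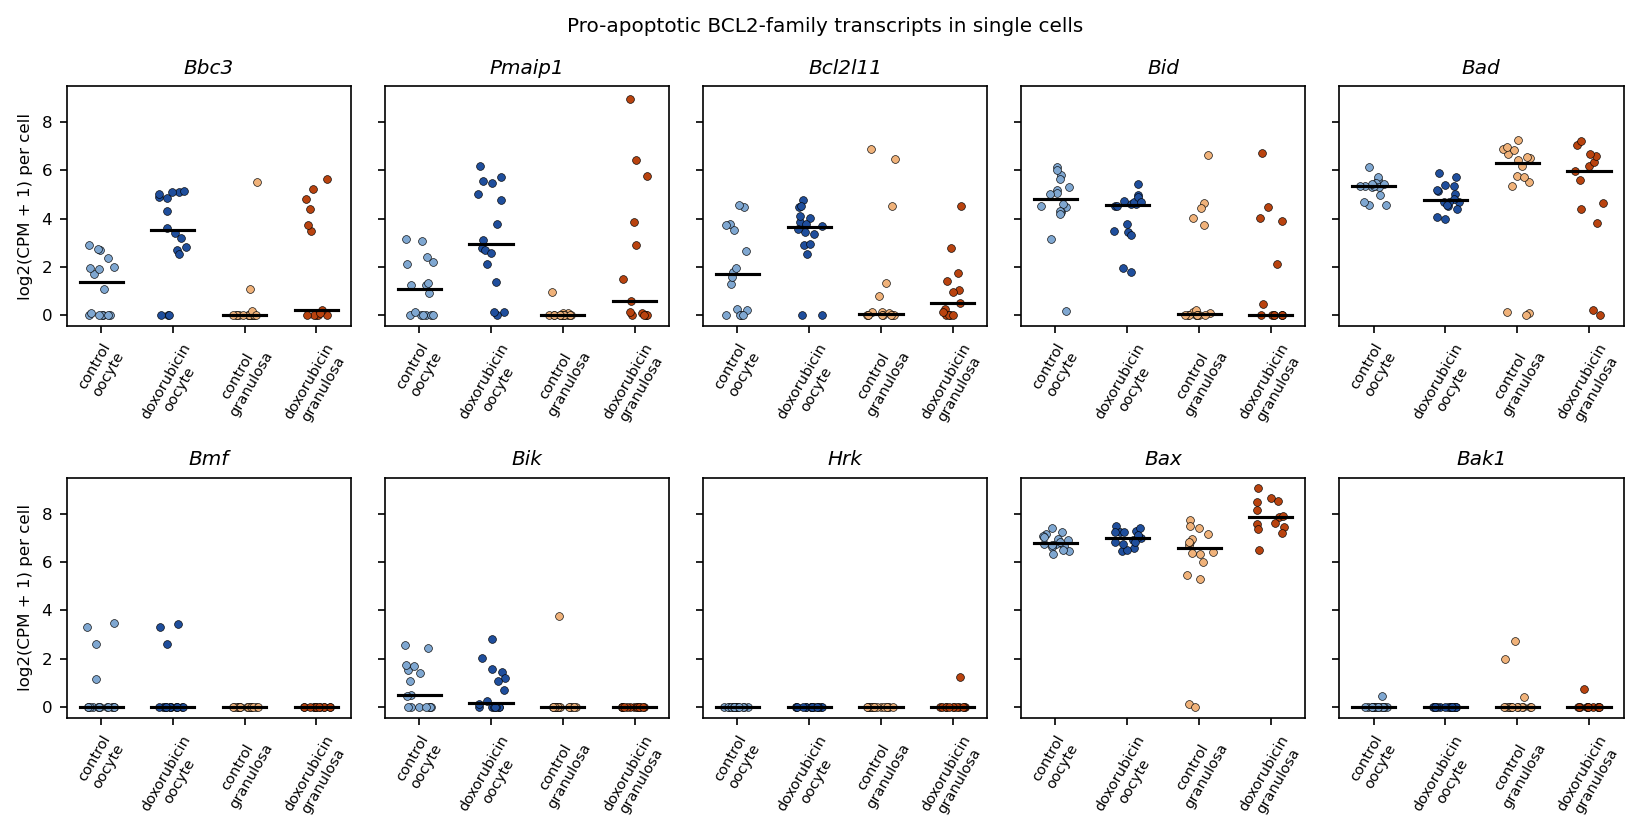
Level of each of the 10 genes in each cell as log2(CPM + 1) (vertical axis); a point is 1 cell and a black line is the group median. Bbc3 and Pmaip1 lie higher in doxorubicin oocytes than in control oocytes, Bax lies higher in doxorubicin granulosa cells than in control granulosa cells, and Bmf, Bik, Hrk and Bak1 are at 0 in most cells.

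The first comparison asked how the oocytes differed after the drug. Bbc3 and Pmaip1 were the genes of the set that were more than 2-fold higher in doxorubicin oocytes, and none was more than 2-fold lower. Of the 10 genes, 6 reached the 5 CPM in either group that the comparison needed (Bbc3, Pmaip1, Bcl2l11, Bid, Bad and Bax), so 2 of 6 stood past the 2-fold bound on the high side, against 6.3% of the 11119 genes tested. On the low side it was 0 of 6, against 2.45% of genes tested. The median log2 ratio of the 6 was 0.49, against 0.01 over all genes tested. Bbc3 and Pmaip1 reached 5 CPM only in the doxorubicin oocytes, and were at 2.16 and 2.13 CPM in the control oocytes. Their place among the 6 thus already required a rise, so the share and the median are no independent evidence of a direction. None of the members at 5 CPM or more in control oocytes (Bcl2l11, Bid, Bad and Bax) passed 2-fold in group level. Marker levels also differed between the control and doxorubicin oocytes, with medians of 45787 and 33176 CPM for summed oocyte markers and of 0.658 and 25.3 CPM for 6 endothelium markers, and granulosa markers reached 771 and 3099 CPM. The part of the oocyte and endothelium markers in the results was not tested.

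Bbc3 (chr7:16308393-16318205) had a lowest, median and highest level of 0, 1.68 and 6.55 CPM over the control oocytes. Over the doxorubicin oocytes the lowest, median and highest levels were 0, 10.5 and 33.9 CPM. In 10 of the 16 doxorubicin oocytes Bbc3 was above the highest control oocyte, and doxorubicin oocytes 8, 15 and 16 had no read of it, so the groups overlapped at the low end. As group levels, 15.7 CPM (95% interval 15.1 to 16.3) stood against 2.16 CPM (1.96 to 2.38), a log2 ratio of 2.86 (2.71 to 3.01). Leaving out each cell in turn gave 2.75 to 3.07. In 1.96% of the genes tested, 8 or more of the 16 doxorubicin oocytes exceeded the highest control oocyte, and Bbc3 was the member among them.

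Pmaip1 (chr18:66458533-66465565) had a lowest, median and highest level of 0, 1.16 and 8.06 CPM over the control oocytes. Over the doxorubicin oocytes these were 0, 6.87 and 72.2 CPM. The highest cell was doxorubicin oocyte 4, followed by oocytes 3, 10, 11, 13, 7 and 9, and these 7 were above every control oocyte. The other 9 lay within the control range. Group levels were 20.0 and 2.13 CPM, with a log2 ratio of 3.23 (3.08 to 3.38), which ranged from 2.90 without doxorubicin oocyte 4 to 3.53 without control oocyte 14. A log2 ratio of at least 1 that held over leaving out each cell was seen in 4.19% of genes tested, and Bbc3 and Pmaip1 were both among them.

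The 7 doxorubicin oocytes above all controls in Pmaip1 were all among the 10 above all controls in Bbc3. At 5 or more reads of each, both transcripts were seen in 12 of 16 doxorubicin oocytes and in 5 of 16 control oocytes. Doxorubicin oocyte 12 had Bbc3 at 8.27 CPM and no read of Pmaip1, and doxorubicin oocyte 15 had Pmaip1 at 3.35 CPM and no read of Bbc3. Across the 16 doxorubicin oocytes the rank correlation (Spearman) of Bbc3 with Pmaip1 was 0.68, against -0.27 across the 16 control oocytes. These correlations describe cells that share a library preparation and an unknown number of animals. Mdm2, a p53-family target that limits p53 itself, was above all controls in 9 doxorubicin oocytes, all of them among the 10 for Bbc3 and including the 7 for Pmaip1. Its rank correlation over doxorubicin oocytes was 0.71 with Bbc3 and 0.87 with Pmaip1. Cdkn1a, the cell cycle inhibitor p21, was above all controls in 12 doxorubicin oocytes, which included 9 of the 10 for Bbc3 and 6 of the 7 for Pmaip1, and its rank correlation was 0.50 with Bbc3 and 0.27 with Pmaip1.

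**Figure D3:**
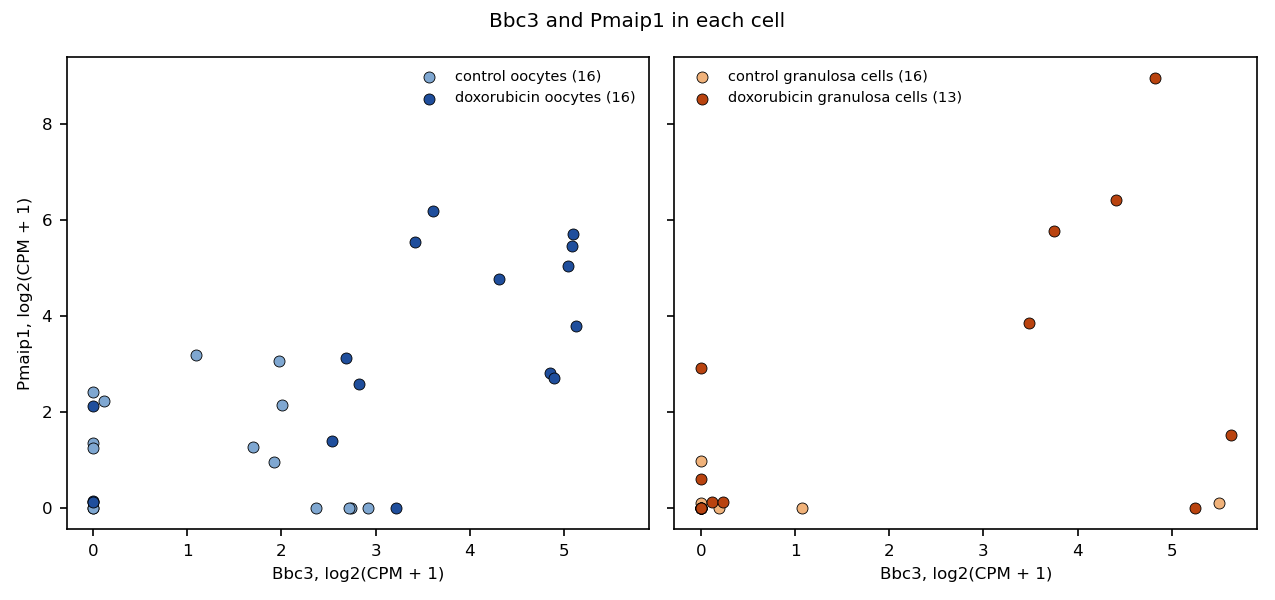
Bbc3 (horizontal axis) against Pmaip1 (vertical axis) in each cell, both as log2(CPM + 1), for oocytes on the left and granulosa cells on the right; a point is 1 cell. In the doxorubicin oocytes, 12 of 16 hold at least 5 reads of both genes, while control granulosa cells are gathered at 0.

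Bcl2l11, which encodes BIM, is known to be induced by FOXO3 and bound to the dynein motor through DYNLL1. Its lowest, median and highest levels (chr2:128126038-128162547) were 0, 2.27 and 22.6 CPM over control oocytes and 0, 11.6 and 26.5 CPM over doxorubicin oocytes. Only doxorubicin oocyte 10 was above the highest control oocyte. At 5 or more reads, 10 of 16 control and 14 of 16 doxorubicin oocytes were positive. The log2 ratio of group levels, 11.6 over 6.84 CPM, was 0.76 (0.66 to 0.86) and did not reach the 2-fold bound, whereas the ratio of the means over cells was 1.01 and the difference of medians of log2(CPM + 1) was 1.94, both past it. Across doxorubicin oocytes Bcl2l11 had a rank correlation of 0.66 with summed granulosa markers and 0.69 with summed stroma markers. A subset chosen after seeing the data kept the 9 control and 10 doxorubicin oocytes under 200 CPM of either marker list. The log2 ratio of Bcl2l11 group levels was 0.20 there, while those of Bbc3 and Pmaip1 were 2.87 and 3.40. The median of Bcl2l11 in this subset still differed, at 2.50 CPM for controls against 7.93 CPM after doxorubicin. Its highest cell went the other way, at 22.6 against 13.7 CPM. At least 5 reads of Bcl2l11 were seen in 5 of these 9 controls and 8 of the 10 treated cells. The part of these markers in the Bcl2l11 value was not tested.

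Of the 6 genes tested, Bid and Bad had lower group levels in doxorubicin oocytes. Bid (chr6:120891930-120916853) ranged from 0.127 to 69.8 CPM over control oocytes with a median of 27.5, and from 2.44 to 42.8 CPM over doxorubicin oocytes with a median of 22.8. No doxorubicin oocyte lay outside the control range. The group levels of 19.3 and 34.1 CPM gave a log2 ratio of -0.82 (-0.88 to -0.76), short of 2-fold, while the difference of medians was -0.24. In the subset low in granulosa and stroma markers the log2 ratio was -1.09, past the bound. Exons of Bid share 17.7% of their bases with Bcl2l13 on the other strand, and no source used here says that the counting used strand.

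Bad (chr19:6941861-6951899) ranged from 22.4 to 69.8 CPM over control oocytes with a median of 39.8, and from 14.6 to 58.7 CPM over doxorubicin oocytes with a median of 26.3. In 5 of 16 doxorubicin oocytes it was below the lowest control oocyte, and the rest lay within the control range. The log2 ratio was -0.39 (-0.44 to -0.34), from -0.48 to -0.33 over leaving out each cell. Gpr137, on the other strand, shares 20.5% of the exon bases of Bad.

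Of the remaining BH3-only genes, Bmf is known to sense changes of the cytoskeleton, Bik acts at the endoplasmic reticulum and Hrk is known from neurons. None reached 5 CPM in an oocyte group. Bmf stood at 2.32 CPM in control oocytes, with at least 5 reads in 4 of 16 cells and 60.7% of the reads in control oocyte 16, and at 1.51 CPM in doxorubicin oocytes, in 3 of 16. Bik stood at 1.37 and 0.962 CPM, with at least 5 reads in 8 and 7 of 16 oocytes. For each gene alone, no more than 8 of 16 oocytes of a group held at least 5 reads, and no direction is read from these levels. Hrk had 0 reads in all 32 oocytes. A count of 0 in a group allowed a level of up to 0.0153 CPM in control oocytes and 0.0168 CPM in doxorubicin oocytes at 3 counts.

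The pore-forming genes Bax and Bak1 lay far apart. Bax (chr7:45461697-45466898) ranged from 79.3 to 167 CPM over control oocytes with a median of 109, and from 87.2 to 180 CPM over doxorubicin oocytes with a median of 127. The ranges overlapped nearly in full, with 1 doxorubicin oocyte above the highest control oocyte. The log2 ratio was 0.21 (0.18 to 0.23), from 0.13 to 0.26 over leaving out each cell, so the difference in oocytes was small beside the spread between cells. Bak1 (chr17:27019810-27029009) had 4 reads in the 16 control oocytes, all in control oocyte 5, and none in the doxorubicin oocytes. Measured per kilobase of exon in control oocytes, Bax was at 70.4 and Bak1 at 0.00849 CPM per kb. Exons of Bax share 12.2% of their bases with Gm45808 on the same strand. Those of Bak1 share 25.5% with other annotated genes, at least 18.2% with Ggnbp1 on the other strand. Reads in these stretches cannot be assigned with certainty.

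**Figure D4:**
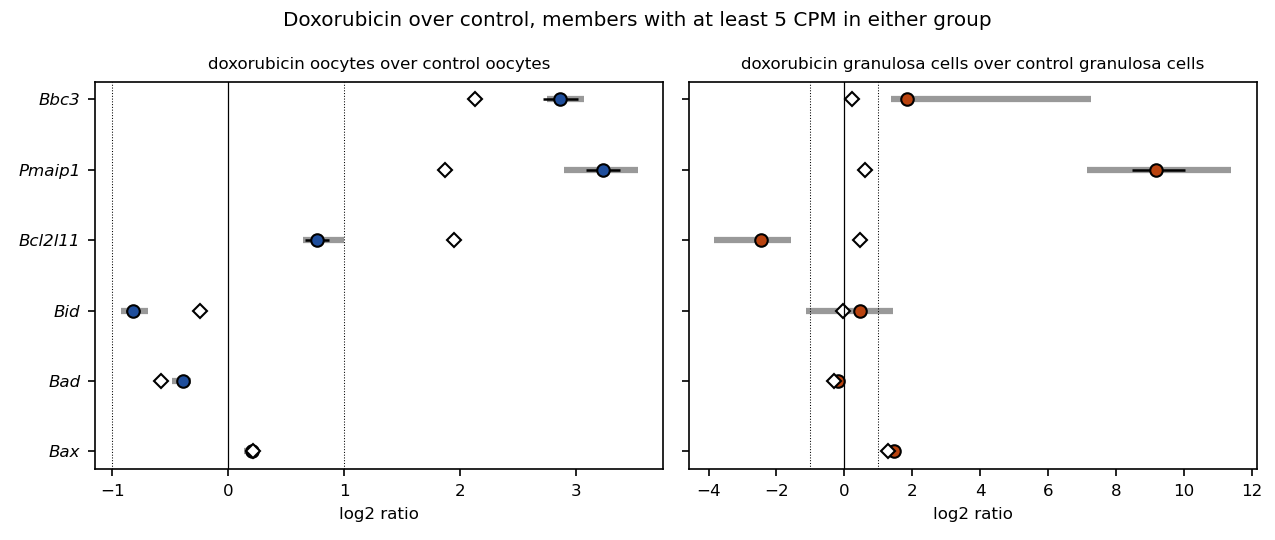
Log2 ratio of doxorubicin over control for the 6 genes that reached 5 CPM in one group or the other, in oocytes (left) and granulosa cells (right), on horizontal axes of different length. Filled points are ratios of group CPM, black lines 95% counting intervals, grey bars the range over leaving out each cell, and open diamonds the difference of the medians of log2(CPM + 1); dotted lines mark 2-fold. In oocytes Bbc3 and Pmaip1 lie beyond 2-fold by every measure drawn, and in granulosa cells only Bax has both its point and its diamond beyond 2-fold.

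The second comparison asked the same of the cells labelled granulosa. Bbc3, Pmaip1 and Bax were more than 2-fold higher in the doxorubicin group and Bcl2l11 was more than 2-fold lower. This was 3 of 6 genes on the high side, against 20.6% of the 12194 genes tested, and 1 of 6 on the low side, against 20%. All 4 kept their side of 2-fold when any 1 cell was left out, as did 10% of genes tested on the high side and 9.73% on the low side. With the same genes tested, the median log2 ratio of the 6 was 0.96 and that over all genes was -0.03. Differences past 2-fold were thus common among all genes in these groups. Bbc3 and Pmaip1 reached 5 CPM only in the doxorubicin group, and were at 3.31 and 0.0834 CPM in control granulosa cells. Bcl2l11 reached it only in the control group, and was at 2.82 CPM in doxorubicin granulosa cells. Each passed the filter only through the group where it was higher, so the shares and median of the members are no independent evidence of a direction.

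Bax was the gene of the set whose difference ran through most granulosa cells. It ranged from 0 to 212 CPM over control granulosa cells with a median of 93.5, and control granulosa cells 3 and 8 were at or near 0. Over doxorubicin granulosa cells it ranged from 87.7 to 525 CPM with a median of 230. In 7 of 13 doxorubicin granulosa cells Bax was above the highest control cell, and the lowest lay within the control range. The group levels of 256 and 93.4 CPM gave a log2 ratio of 1.45 (1.43 to 1.48), and leaving out each cell gave 1.32 to 1.58. In 0.631% of the genes tested, 7 or more of the 13 doxorubicin cells exceeded the highest control cell, and Bax was the member among them. In cells whose own markers were higher, the Bax levels were 250 CPM in 5 doxorubicin cells and 107 CPM in 10 control cells, a log2 ratio of 1.22, and 0.95 without doxorubicin granulosa cell 8.

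Pmaip1 in control granulosa cells came to 15 reads in all, 0.0834 CPM (0.0467 to 0.138), and only control granulosa cell 7 had 5 or more. In doxorubicin granulosa cells its lowest, median and highest levels were 0, 0.519 and 496 CPM. Doxorubicin granulosa cell 6 held 77.4% of the reads, and 6 of 13 cells were above the highest control cell. The log2 ratio of group levels was 9.19 (8.46 to 10.02) and 7.16 without doxorubicin granulosa cell 6, but the difference of medians was 0.60, and 7 of 13 cells had under 1 CPM. In doxorubicin granulosa cell 6 oocyte markers summed to 29770 CPM and granulosa markers to 617 CPM. In cells whose own markers were higher the Pmaip1 levels were 13.4 and 0.126 CPM, a log2 ratio of 6.73. It was 5.41 without doxorubicin granulosa cell 15, the cell with the highest blood and immune markers.

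Bbc3 had at least 5 reads in 2 of 16 control and 6 of 13 doxorubicin granulosa cells. Control granulosa cell 2, where stroma markers summed to 8342 CPM and granulosa markers to 342 CPM, held 97.8% of the control reads at 44.4 CPM. Doxorubicin granulosa cells 9, 2, 6, 10, 15 and 8 stood at 48.4, 36.9, 27.2, 20.2, 12.5 and 10.2 CPM, and 1 of them was above that control cell. The log2 ratio was 1.85 (1.72 to 1.99), 7.26 without control granulosa cell 2 and 1.39 without doxorubicin granulosa cell 9. In cells 2, 6, 9 and 10 oocyte markers were the higher list. In cells whose own markers were higher the levels were 4.44 and 0.108 CPM, a log2 ratio of 5.36 (4.65 without doxorubicin granulosa cell 8, 7.21 without control granulosa cell 11), but under the 5 CPM that the comparison needed. The genes past 2-fold in those cells were Pmaip1, Bid (1.14) and Bax on the high side and Bcl2l11 (-1.27) and Bad (-1.15) on the low side. No share of all genes is given for this subset or for the smaller one below, so these calls are no result about the members. With all labelled granulosa cells, 20.6% of genes tested were past 2-fold on the high side and 20% on the low side. Single cells set several of the log2 ratios of the members. Bid was at -0.56 without doxorubicin granulosa cell 14, Bcl2l11 was at 0.96 without control granulosa cell 4, and Bad was at -0.92 without doxorubicin granulosa cell 8. Of the 13 doxorubicin granulosa cells, 5 had at least 5 reads of both Bbc3 and Pmaip1, 5 had neither, and 0 of 16 control granulosa cells had both. With only the 10 control and 3 doxorubicin granulosa cells led by granulosa markers over oocyte, stroma and blood markers, a subset chosen after seeing the data, Bbc3 and Pmaip1 were under 5 CPM in both groups, and the genes past 2-fold on the high side were Bid (1.45) and Bax (1.46). Without doxorubicin granulosa cell 14 the Bid value of this subset was -3.13. On the low side was Bcl2l11 (-2.49), at -0.26 without control granulosa cell 4.

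Bcl2l11 had its reads in few granulosa cells. Control granulosa cells 4, 3 and 6 stood at 117, 87.7 and 22.2 CPM and control cell 4 held 48.9% of the reads, while the control median was 0.0376 CPM. In doxorubicin granulosa cells the median was 0.437 CPM and doxorubicin granulosa cell 13, at 22.0 CPM, held 64.9% of the reads. The log2 ratio of group levels was -2.44 (-2.60 to -2.29), from -3.82 to -1.57 over leaving out each cell, but the difference of medians was 0.47, in the other direction. At 5 or more reads, 5 of 16 control and 6 of 13 doxorubicin granulosa cells were positive.

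Bid and Bad did not pass 2-fold in granulosa cells. Bid stood at 9.25 CPM in control and 12.7 CPM in doxorubicin granulosa cells, with a log2 ratio of 0.46 (0.36 to 0.56) that was -1.13 without doxorubicin granulosa cell 14, which held 69.6% of the reads at 103 CPM. Bad ranged from 0 to 153 CPM with a median of 78.0 over control granulosa cells and from 0 to 147 CPM with a median of 62.3 over doxorubicin granulosa cells. The Bad log2 ratio was -0.19, but it was -1.15 in the cells whose own markers were higher. Bmf had 0 reads in all 29 granulosa cells. Bik had 144 reads in control granulosa cell 5 and none elsewhere among them, Hrk had 13 reads in doxorubicin granulosa cell 15 alone, and Bak1 had 104 reads in 3 control cells and 8 in doxorubicin granulosa cell 14. These 4 genes did not reach 5 CPM in either granulosa group.

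Oocytes and granulosa cells were also set side by side within each treatment. Between the control groups Bid was higher in oocytes, with a log2 ratio of 1.88 (1.80 to 1.96), and Bcl2l11 was lower, with a log2 ratio of -1.16. Of the 4 genes tested this was 1 on the high side, against 29% of the 12373 genes tested, and 1 on the low side, against 31.3%. The Bid value ranged from 1.76 to 2.86 over leaving out each cell and was 1.37 in cells whose own markers were higher. The Bcl2l11 value was -0.29 without control granulosa cell 4 and -1.14 in cells whose own markers were higher. Bad and Bax differed by log2 ratios of -0.73 and 0.25. Between the doxorubicin groups Bcl2l11 was higher in oocytes, with a log2 ratio of 2.04, against 27.6% of the 12428 genes tested on the high side. Bcl2l11 reached 5 CPM only in the doxorubicin oocytes, at 11.6 CPM against 2.82 CPM in doxorubicin granulosa cells. It thus passed the filter only through the group where it was higher, so this call is no independent evidence of a direction. Pmaip1 was lower in doxorubicin oocytes, with a log2 ratio of -1.28, against 28.2% on the low side, and this became 0.75 without doxorubicin granulosa cell 6. Each share of members here was near that of all genes. The drug comparisons and these comparisons share cells, so their values are not independent.

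Summed over the 8 BH3-only genes, the lowest, median and highest levels per cell were 33.3, 79.8 and 136 CPM in control oocytes and 26.7, 97.7 and 169 CPM in doxorubicin oocytes. The sums overlapped in most oocytes. Bad and Bid, which make up a large part of the sum, had lower group levels in doxorubicin oocytes, and Bbc3 and Pmaip1 higher ones. For granulosa cells the lowest, median and highest sums were 0.0752, 104 and 181 CPM without the drug and 0, 101 and 596 CPM with it. The number of BH3-only genes with at least 5 reads per cell had a median of 4 in control and 5 in doxorubicin oocytes, and of 2 and 3 in the granulosa groups. With each cell thinned to 1000000 counts the medians of the oocyte groups became 3 and 5, and those of the granulosa groups 1.5 and 2.

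The other genes of the pathway were read from lists, whose counts past 2-fold stand against 6.3% of genes tested on the high side and 2.45% on the low side in oocytes, and against 20.6% and 20% in granulosa cells. Of the pro-survival relatives, which the BH3-only proteins bind, 3 of 8 were tested in oocytes and 0 passed 2-fold. Their log2 ratios were 0.21 for Mcl1, the partner that NOXA binds, -0.26 for Bcl2l1, which encodes BCL-XL, and 0.43 for Bcl2l10, an oocyte-rich relative. In granulosa cells 4 were tested and 3 were higher, namely Bcl2 (1.12, and 0.50 without doxorubicin granulosa cell 8), Bcl2l1 (1.27, and -0.01 without doxorubicin granulosa cell 12) and Bcl2l10 (3.79, and 3.14 without doxorubicin granulosa cell 4). With own markers higher, these were 1.83, 1.31 (0.38 without doxorubicin granulosa cell 15) and 9.53 (0.88 without doxorubicin granulosa cell 14). Oocyte markers were also higher in that group, as given above, and their part in the Bcl2l10 value was not tested. Bok, a relative of BAX that can form pores without it, had a log2 ratio of 1.17 in oocytes, 0.37 without doxorubicin oocyte 12, and -1.67 in granulosa cells (-2.27 without doxorubicin granulosa cell 8, and -1.10 where own markers were higher).

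Of the genes that act after the pore has formed, 8 of 9 were tested in oocytes and 2 were higher. Apaf1, the scaffold on which cytochrome c activates caspase-9, had a log2 ratio of 1.57 (2.28 without control oocyte 4), and Casp6, an executioner caspase, had 1.34 and was above all controls in 9 of 16 doxorubicin oocytes. In granulosa cells 9 of 9 were tested, with Apaf1 (3.72, and 1.80 without doxorubicin granulosa cell 1, whose oocyte markers summed to 42293 CPM) and Casp9 (1.82, and 3.56 without control granulosa cell 6) higher and Xiap, an inhibitor of caspases, lower (-1.28, and -0.59 without control granulosa cell 5). In cells whose own markers were higher Apaf1 was at 1.33, Casp9 at 2.19 and Xiap at -0.93, and Apaf1 there was at -0.10 without doxorubicin granulosa cell 8. The median of this list was 0.50 in oocytes and -0.40 in granulosa cells. Among 8 proteins that bind or process the members, 7 were tested in oocytes with 0 past 2-fold, and 8 in granulosa cells with Casp8 (1.02, and 0.72 without doxorubicin granulosa cell 4) and Mapk8 (1.06) higher. Mapk8, which encodes JNK1, was at -0.78 without doxorubicin granulosa cell 9. With own markers higher, Casp8 was at 0.00 and Mapk8 at -2.11.

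Of the 8 transcription factors listed for their action on the members, Trp73 alone passed 2-fold in oocytes. It is the p53 relative p73, and it stood at 49.0 CPM in doxorubicin and 1.56 CPM in control oocytes, a log2 ratio of 4.97, from 4.42 to 5.97 over leaving out each cell. In 7 of 16 doxorubicin oocytes Trp73 was above every control oocyte. The log2 ratios of Trp53 and Trp63 were 0.39 and -0.09. In granulosa cells Foxo3 (1.10, and -0.01 without doxorubicin granulosa cell 1) and E2f1 (2.31, and 5.46 without control granulosa cell 7) were higher and Trp63 (-1.43, and -0.36 without control granulosa cell 4) was lower. With own markers higher, Foxo3 was at -1.57, E2f1 at 1.32 (0.26 without doxorubicin granulosa cell 15) and Trp63 at -0.61 (1.00 without control granulosa cell 4). In the 10 control and 3 doxorubicin granulosa cells led by granulosa markers, Foxo3 was at -1.42 and Trp63 at -0.44. E2f1 reversed there to -6.16, and was at 0.43 without control granulosa cell 7. All 4 of the p53-family reference targets were higher in both cell types: Cdkn1a, Mdm2, Ccng1 and Phlda3 had log2 ratios of 3.06, 2.09, 1.76 and 4.48 in oocytes and of 6.42, 1.47, 3.70 and 2.85 in granulosa cells. In the granulosa cells whose own markers were higher these were 4.91, 1.49, 4.38 and 4.58. The lists were chosen with results of these data known, so their counts are no independent evidence of a direction.

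**Figure D5:**
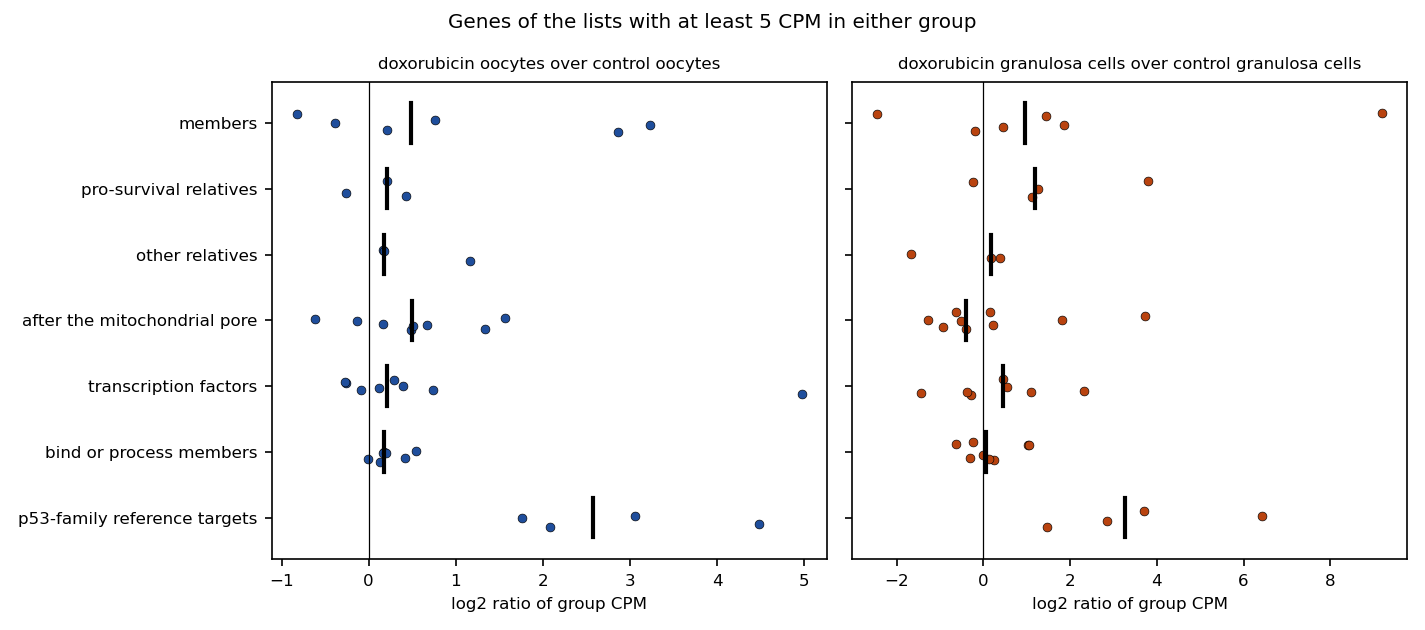
Log2 ratio of group CPM, doxorubicin over control (horizontal axes, of different length), for the genes of each list that reached 5 CPM in one group or the other, in oocytes (left) and granulosa cells (right). A point is 1 gene and a black line is the median of the list; the members have a median of 0.49 in oocytes and 0.96 in granulosa cells, and the 4 p53-family reference targets have 2.57 and 3.27.

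The genes whose levels were most like those of a member over the 32 oocytes were found by Spearman correlation of log2(CPM + 1) among 11867 genes with at least 5 reads in 16 or more of the oocytes. Both treatments are pooled in this measure. For Bbc3 the nearest were Mdm2 (0.79), Frs3 (0.78) and 1700007K13Rik (0.78). For Pmaip1 they were Adgrg1 (0.78), Ascl2 (0.77) and Cpne2 (0.75). For Bcl2l11 the nearest gene was Eif5a (0.68), for Bid Trappc12 (0.64), for Bad Gm9493 (0.68) and for Bax Slc25a3 (0.72), a phosphate carrier of the mitochondrial inner membrane. Over the 29 granulosa cells 2 members were found often enough, and the nearest genes of 6545 were Exosc8 for Bad (0.71) and Dmap1 for Bax (0.73).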

How the data were processed

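Single oocytes and granulosa cells were made into full-length libraries with a low-input kit and sequenced in pairs on 1 type of instrument, and the batch label is 1 for every cell, per the labels. The authors deposited their estimated counts, a value for every gene in every cell; 34.0% of the values above 0 are not whole. The build mm10 and the tools Partek, Bowtie2, HISAT2 and DESeq2 are named, with no role, per the submitters' processing notes; versions, annotation, filters and strand are not given in the sources used here. All 61 columns were matched by name. Raw reads of doxorubicin oocyte 4 were lost, per the labels, but its column is present and was used. The 22 rows named by a date (0.144% of all counts) stayed in the totals.

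Estimated counts were rounded, summed over the cells of a group and divided by the summed total to give CPM. The value of a comparison is the log2 ratio of group CPM (a group under 3 counts set to 3), with an exact conditional binomial 95% interval; group CPM have exact Poisson intervals. A gene needed 5 CPM in either group and an absolute log2 ratio of at least 1 to count as past 2-fold. No test was possible with 1 sample a group. Genes named are the 10 members, the genes of the pathway lists and the nearest genes. Members, lists and markers were chosen with earlier results of these data known. Alternatives were other ways of combining cells, edgeR TMM and DESeq2 scaling, filters, folds, cells kept by markers and each cell left out; others, which leave out cells within kept granulosa cells or keep cells by more markers, were added after seeing the data. No pair of cells within a group was alike within sampling noise (chi-square over degrees of freedom was 56.7 for the closest pair). Exon lengths came from GENCODE M21 and promoters from RefSeq GRCm38.p6, both of the mm10 build. The ratio calculation was run on simulated counts in which the cells of a group varied around a shared level of each gene. The simulation did not copy genes whose reads lie mostly in a single cell, so it does not bear on those. Python 3.11.15, numpy 2.4.6, pandas 2.3.3, scipy 1.17.1, matplotlib 3.10.9, R 4.3.3, edgeR 4.0.16 and DESeq2 1.42.0 were used.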

Additional observations from a re-analysis of the deposited data

Results flagged for a closer look

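The log2 ratio of Bcl2l11, doxorubicin over control, was 0.76 in oocytes and -2.44 in granulosa cells. These ratios of group levels point in opposite directions whichever 1 cell was left out, which is why they are listed here. The difference between the cell types was not tested. Most granulosa reads lay in a few cells. By medians of log2(CPM + 1) the granulosa difference was 0.47, higher in the doxorubicin group, the same direction as in oocytes. At 5 or more reads, 5 of 16 control and 6 of 13 doxorubicin granulosa cells were positive. In granulosa cells whose own markers were higher the ratio was -1.27, and 0.96 without control granulosa cell 4. The opposite directions thus hold for the group levels of all labelled cells and not by medians.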

How the results depend on the processing

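No paired analysis was possible because the results come from no test, and the shared cell numbers name cells, not animals. For the alternatives below no share of all genes is given. The counts show only how the calls move with the processing, and are no evidence about the members. The count of 2 genes past 2-fold on the high side in oocytes (Bbc3 and Pmaip1) was 2 to 2 on leaving out each cell and held both genes under each alternative run, with Bcl2l11 as a member more by the mean of cells, by medians and at 1.5-fold; the low side gave 0 to 0, and 1 (Bid) at 1.5-fold and 1 (Bid) in the subset low in granulosa and stroma markers and led by own markers, chosen after seeing the data. In granulosa cells the high side gave 3 to 4 on leaving out each cell, 1 (Bax) by medians and 1 (Pmaip1) at 4-fold; the low side gave 1 to 2, with 0 by medians, 3 without a filter, 2 with own markers higher and 0 in cells rich in granulosa markers (5000 CPM or more). For control oocytes over control granulosa cells the high side gave 1 to 1, with 2 by medians, 3 at 1 CPM, 3 without a filter and 0 at 4-fold; the low side gave 0 to 1, with 0 by medians, 2 without a filter, 2 at 1.5-fold, 0 at 4-fold and 2 in the added subset. For doxorubicin oocytes over doxorubicin granulosa cells the high side gave 1 to 2, with 4 by medians, 2 at 1 CPM, 3 without a filter, 2 at 1.5-fold, 2 in cells rich in granulosa markers and 3 in the added subset; the low side gave 0 to 3, with 2 by the mean of cells, 3 without a filter, 3 at 1.5-fold, 0 at 4-fold, 0 with own markers higher and 0 in cells rich in granulosa markers.

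The ratio of Bcl2l11 reversed by medians to 0.47 in granulosa cells and to 1.65 between control cell types, where it was also 0.68 in cells rich in granulosa markers. The ratio of Pmaip1 between doxorubicin cell types reversed to 2.36 by medians, 0.58 with own markers higher, 0.60 in cells rich in granulosa markers, 2.09 in the added subset and 0.75 without doxorubicin granulosa cell 6; leaving out each cell gave -1.61 to 0.75. The cause was not tested. TMM factors lay between 0.991 and 1.009 and reversed no ratio, and DESeq2 size factors reversed none.

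Counting error was small beside the spread between cells, so the number of cells and of animals, not depth, sets the precision. Several granulosa values rest on 1 cell, and the granulosa groups held cells with high oocyte or stroma markers.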
